A study of Mus musculus with 4 samples.

Results

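The killer lectin-like receptor (Klr) genes were followed through the leukocytes of the inflamed spinal cord. The members were all gene symbols starting with Klr in the deposited gene tables, 26 of 32285 genes, a rule that uses no measured value, although the family itself was picked with earlier results of these data known. The animals were C57BL/6 mice in which experimental autoimmune encephalomyelitis (EAE) had been induced, an autoimmune inflammation of the central nervous system raised by immunisation. One pair of libraries came from animals given Reg1-MOs (Reg1-MO 1 and 2) and the other from animals given Ctrl MO (control 1 and 2). In all 4 libraries the injection was intracranial on day 9, and CD45+ cells were sorted from the spinal cord on day 16. The labels spell out neither MO nor Reg1, give no target site, and do not say whether a library holds 1 animal or several, so the p-values measure the spread between these libraries.

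Klr genes encode C-type lectin-like receptors, most of them packed into the natural killer gene complex, and they set the balance of activation and inhibition in natural killer (NK) cells. The Ly49 receptors (Klra genes) and the CD94-NKG2 dimers (Klrd1 with Klrc1, Klrc2 or Klrc3) read MHC class I molecules, NKG2D (Klrk1) reads stress-induced class I relatives, and several NKR-P1 receptors (Klrb1 genes) read Clec2 proteins. Many are also acquired by activated CD8 T cells, and a few by regulatory T cells, dendritic cells and myeloid cells. Each NK cell turns on a subset of the Ly49 genes, so that receptor combinations differ from cell to cell.

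The libraries held 9103 and 5256 barcodes for Reg1-MO 1 and 2, and 8255 and 6765 for control 1 and 2, with totals of 75472324 to 174552218 UMIs (unique molecular identifiers, the counted transcript molecules). After filtering, 26853 cells were used, with medians of 9947.5 to 12103 UMIs per cell and library. Pairs of libraries shared 10 to 78 barcodes. Cell classes were named from marker genes and carry the suffix "-like", and Klr genes were kept out of the clustering and of the markers. Zc3h12a, the gene of the RNase Regnase-1, as which Reg1 is read here, had 58.4 and 67.5 CPM (a gene's UMI count scaled to a fixed total of UMIs in the named cells of a library) over all cells of Reg1-MO 1 and 2, against 57.5 and 69.9 CPM in control 1 and 2. In NK/ILC1-like cells it had 67.9 and 103 CPM in the Reg1-MO libraries, against 130 and 116 CPM in the controls. There the groups were apart, on 41 to 65 UMIs per library and with no test run. For Zc3h12a in CD8 T-like, CD4 T-like, regulatory T-like and macrophage-like cells, the groups overlapped. With no target site given, these transcript levels do not check the labels. Free RNA was present, since S100a9, a neutrophil gene, had a UMI in 58.9% of NK/ILC1-like cells.

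All 26 members matched the GENCODE M21 annotation of GRCm38, and all lie on chromosome 6. From Klrb1a to Klra2, 24 of them lie within 2638 kb, in which Klra2 stands 832 kb beyond its nearest neighbour, Klra1. Klrg1 and Klrg2 lie apart from the others. The cells used held 123145 Klr UMIs, and 18346 of the 26853 cells had at least 1. Klra2 alone held 41.5% of them, which left 72054 UMIs for the other members. Of the members, 24 reached 200 UMIs, while Klrb1 had 32 and Klra10 had 17.

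The family was densest in NK/ILC1-like cells, as a level and not as a share of all its transcripts. Klr genes together reached 6442 and 6478 CPM in NK/ILC1-like cells of Reg1-MO 1 and 2, against 7149 and 7950 CPM in control 1 and 2. The 336 NK/ILC1-like cells held 12.3% of all Klr UMIs and 21% of those outside Klra2. CD8 T-like cells had 1457 and 1198 CPM in Reg1-MO 1 and 2, against 839 and 929 CPM in control 1 and 2. CD4 T-like cells had 417 and 345 CPM in the Reg1-MO libraries, against 304 and 338 CPM in the controls. Both Reg1-MO libraries therefore stood below both controls in NK/ILC1-like cells and above both in CD8 T-like and CD4 T-like cells. Macrophage-like cells held 18.9% of the Klr UMIs, but 3.92% once Klra2 was set aside. These sums were not tested, and differences between classes are given as descriptions.

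**Figure D1:**
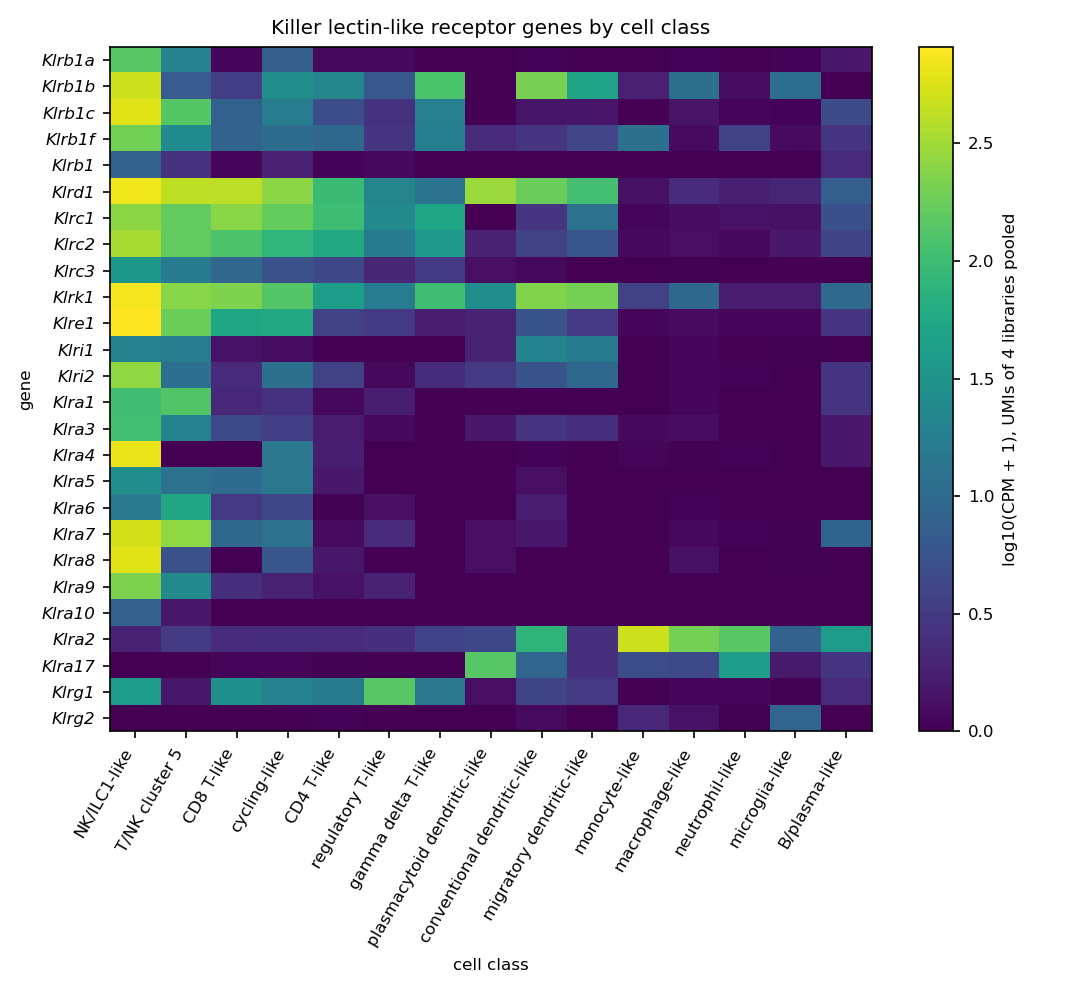
Level of each of the 26 Klr genes (rows) in 15 cell classes (columns) as log10(CPM + 1), from the UMIs of the 4 libraries pooled. Most rows are brightest in NK/ILC1-like cells, while Klra2 is brightest in monocyte-like cells, Klra17 in plasmacytoid dendritic-like cells and Klrg1 in regulatory T-like cells.

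By level, 19 members were highest in NK/ILC1-like cells. Klra1 and Klra6 were highest in a cluster of the T and NK cells that met no naming rule (T/NK cluster 5). Klri1 was highest in conventional dendritic-like cells, with NK/ILC1-like cells nearly level, and Klra17 in plasmacytoid dendritic-like cells. Klrg1 was highest in regulatory T-like cells, Klrg2 in microglia-like cells and Klra2 in monocyte-like cells. In the NK/ILC1-like class 78.6% of cells had a UMI of Ncr1, the activating receptor NKp46, and 62.2% of Eomes, an NK transcription factor. Both genes were among the markers that named the class, so their shares describe it and do not check its name. The T cell gene Cd3e had a UMI in 3.87% of these cells, and the T cell receptor genes Trac and Trdc in 12.8% and 22.9%. Klrb1c, which encodes the NK1.1 antigen of C57BL/6 mice, had a UMI in 89.6% of NK/ILC1-like cells at a median of 6145.5 UMIs, against 0.0739% of neutrophil-like cells at a median of 6072 UMIs. The same shares were 91.4% and 0.333% for Klrd1.

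NK/ILC1-like cells made up 1.76% (95% Wilson interval 1.49% to 2.07%) and 1.13% (0.872% to 1.47%) of the cells in Reg1-MO 1 and 2, against 0.954% (0.758% to 1.20%) and 1.05% (0.828% to 1.34%) in control 1 and 2. These intervals cover counting error only. Both Reg1-MO libraries lay above both controls, with a difference of 0.441 percentage points, and the two-sided exact permutation test gave p = 0.333, the smallest that 2 against 2 libraries allow. The difference was 0.128 percentage points without Reg1-MO 1 and 0.754 without Reg1-MO 2.

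Within NK/ILC1-like cells, 19 members had enough counts to be tested with edgeR, and 1 of them, Klrb1a, was called lower in Reg1-MO at a Benjamini-Hochberg adjusted p under 0.05. The background over all genes tested there was 0.824% called, with 0.412% higher and 0.412% lower in Reg1-MO. On the log2 scale 5 of the 19 lay above 0, among them Klra5 at 0.75 ± 0.57 (SE), and the lowest were Klra1, Klrb1a and Klrc2. Members of the NKR-P1, Ly49 and NKG2 groups differed among themselves, since Klrb1b, Klra7, Klrc1, Klrk1 and Klrd1 lay between -0.11 and 0.03. On TMM-scaled CPM, the groups did not overlap for 8 members, all lower in Reg1-MO, where 21.4% of all tested genes did not overlap and were lower and 21.3% were higher. The median log2 fold change of the tested members was -0.25, against -0.01 for all genes tested.

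Among the NKR-P1 genes, Klrb1a had 109 and 95 CPM in NK/ILC1-like cells of Reg1-MO 1 and 2, against 182 and 218 CPM in control 1 and 2. The groups did not overlap, and the fold change was -0.95 ± 0.21 on the log2 scale (SE), with an edgeR adjusted p of 0.0274. The call was lost without Reg1-MO 1 (edgeR adjusted p = 0.0685), without Reg1-MO 2 (0.301), without control 2 (0.124), with DESeq2 (0.367), with Klr genes among the variable genes of the clustering (0.0592) and with NK cells gated per cell (0.204). Klrb1c, an activating receptor, had 533 and 483 CPM in Reg1-MO 1 and 2, against 694 and 736 CPM in control 1 and 2. Its groups were apart as well, at a log2 fold change of -0.49 ± 0.15 that missed the threshold (edgeR adjusted p = 0.135). Klrb1f, a receptor for a Clec2 protein, had 182 and 123 CPM in the Reg1-MO libraries, against 220 and 252 CPM in the controls (log2 fold change -0.58 ± 0.21, edgeR adjusted p = 0.234). Klrb1b, the inhibitory member that binds Clec2d, had 509 and 428 CPM in the Reg1-MO libraries, against 490 and 503 CPM in the controls. Its groups overlapped, at a log2 fold change of -0.07 ± 0.16. Of the 91-base stretches near the 3' ends of Klrb1b and Klrb1c, 13.8% and 11.3% also occur in another gene, so reads from there cannot be told apart by sequence.

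**Figure D2:**
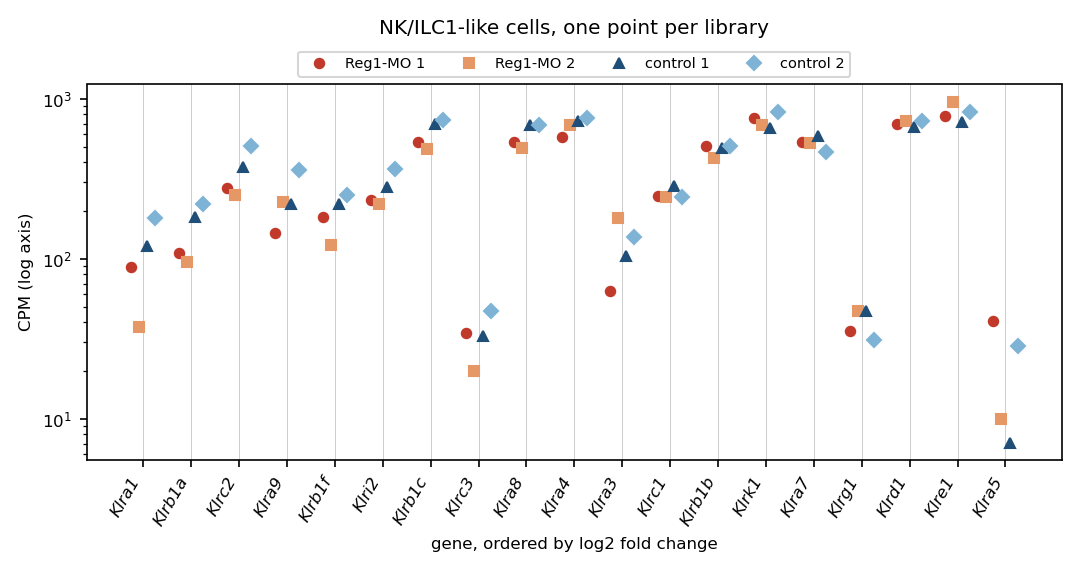
Level of each of the 19 tested Klr genes in NK/ILC1-like cells, 1 point per library (CPM, log axis), ordered by log2 fold change from the lowest on the left. Both Reg1-MO points lie below both control points for Klra1, Klrb1a, Klrc2, Klrb1f, Klri2, Klrb1c, Klra8 and Klra4.

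The Ly49 genes of NK/ILC1-like cells fell into activating members that a large minority of cells carried and inhibitory members at mixed levels. Klra4, encoding the activating Ly49D, had 575 and 688 CPM in Reg1-MO 1 and 2, against 725 and 760 CPM in control 1 and 2. Klra8, encoding the activating Ly49H that recognises a cytomegalovirus protein, had 539 and 490 CPM in the Reg1-MO libraries, against 689 and 684 CPM in the controls. Neither gene's groups overlapped, and the log2 fold changes were -0.25 ± 0.15 and -0.41 ± 0.15, with edgeR adjusted p of 0.554 and 0.229. A UMI of Klra4 was found in 42.6% of NK/ILC1-like cells and a UMI of Klra8 in 44.0%, while in CD8 T-like cells neither gene had any UMI. That count of 0 in 1174 CD8 T-like cells allows a share of up to 0.256% of cells with a UMI.

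The inhibitory Ly49 genes did not move as one. Klra1, encoding Ly49A, had 88.7 and 37.5 CPM in NK/ILC1-like cells of Reg1-MO 1 and 2, against 121 and 180 CPM in control 1 and 2. The groups were apart at a log2 fold change of -1.11 ± 0.29 (edgeR adjusted p = 0.0691). The value was -1.99 without Reg1-MO 1 and -1.36 without control 1. Klra7, encoding Ly49G, had 538 and 530 CPM in the Reg1-MO libraries, against 587 and 465 CPM in the controls, and its groups overlapped. Klra9, encoding Ly49I, had 144 and 228 CPM in the Reg1-MO libraries, against 220 and 359 CPM in the controls, which overlapped narrowly (log2 fold change -0.70 ± 0.23, edgeR adjusted p = 0.182). With NK cells gated per cell on Ncr1 and the absence of Cd3 genes, the value for Klra9 was -1.67 (edgeR adjusted p = 0.000185). The gate left 97 and 40 cells in Reg1-MO 1 and 2 and 44 and 49 in control 1 and 2, in 3 of 4 libraries fewer than the 50 asked of the classes. In the whole class without control 1, the value for Klra9 was -1.01. Klra3, encoding Ly49C, had 62.6 and 180 CPM in the Reg1-MO libraries, against 104 and 138 CPM in the controls, so that Reg1-MO 1 was the lowest library and Reg1-MO 2 the highest. Klra5, encoding Ly49E, had 40.7 and 10.0 CPM in the Reg1-MO libraries, against 7.11 and 28.5 CPM in the controls, with the 2 groups interleaved. Klra10 had 0 to 8 UMIs per library in this class and was not tested.

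Counted per cell, fewer Ly49 genes were seen together in NK/ILC1-like cells of both Reg1-MO libraries. The 9 Ly49 genes other than Klra2 and Klra17 were counted after thinning each cell to 4000 UMIs, which left out 19, 7, 23 and 6 shallower cells in Reg1-MO 1, Reg1-MO 2, control 1 and control 2. At that depth, 34.1% and 32.7% of cells had 3 or more of them in Reg1-MO 1 and 2, against 51.0% and 53.3% in control 1 and 2. Cells with none made up 23.6% and 24.5% in the Reg1-MO libraries, against 18.4% and 13.3% in the controls. Without thinning, the shares with 3 or more were 39.4% and 39.3% in the Reg1-MO libraries, against 50% and 56.1% in the controls. The groups did not overlap in any of these measures, and no test was run on them. In CD8 T-like cells, 3.12% and 3.26% of thinned cells had any Ly49 gene in Reg1-MO 1 and 2, against 2.08% and 5.23% in control 1 and 2.

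**Figure D3:**
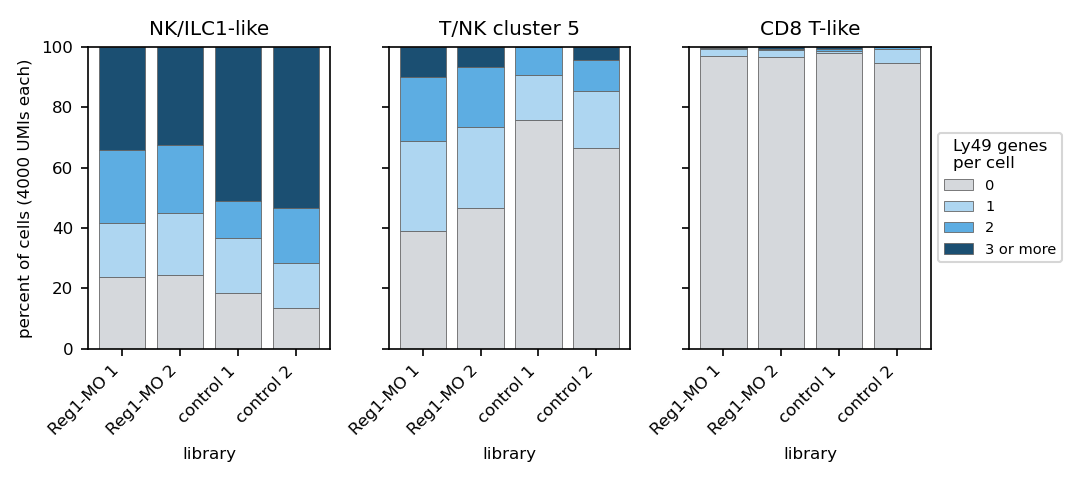
Share of cells with 0, 1, 2, or 3 or more of 9 Ly49 genes detected, in cells thinned to 4000 UMIs each, by library, for NK/ILC1-like, T/NK cluster 5 and CD8 T-like cells. The darkest part, 3 or more genes, covers 34.1% and 32.7% of NK/ILC1-like cells in Reg1-MO 1 and 2, against 51.0% and 53.3% in control 1 and 2.

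T/NK cluster 5, with 94 and 47 cells in Reg1-MO 1 and 2 against 55 and 52 in control 1 and 2, ran the other way. Its markers were mostly those of T cells, with a UMI of Cd3e in 94.8% of its cells, of the T cell receptor gene Trac in 81.0% and of Ncr1 in 5.65%. Any Ly49 gene was detected in 61.1% and 53.3% of its thinned cells in the Reg1-MO libraries, against 24.1% and 33.3% in the controls (70.2% and 59.6%, against 34.5% and 34.6%, without thinning). Klra6, encoding Ly49F, had 95.7 and 74.8 CPM in Reg1-MO 1 and 2, against 17.1 and 5.60 CPM in control 1 and 2. Klra1 had 194 and 144 CPM in the Reg1-MO libraries, against 53.4 and 101 CPM in the controls, and Klra7 had 383 and 246 CPM against 137 and 202 CPM. Both Reg1-MO libraries stood above both controls for all 3 genes. The share of all genes so placed was not computed in this cluster, and in the tested classes it was 20.4% to 26% on TMM-scaled CPM. The make-up of the cluster moved with these genes. Of its cells, 35.1% and 31.9% had a Cd8a or Cd8b1 UMI in Reg1-MO 1 and 2, against 58.2% and 46.2% in control 1 and 2, and the part of this in the Ly49 levels was not tested. Among its cells with a Cd8 UMI, 51.5% and 46.7% had a Ly49 UMI in the Reg1-MO libraries, against 12.5% and 25.0% in the controls. Those shares rest on 33 and 15 cells in the Reg1-MO libraries and 32 and 24 in the controls. Among its cells without a Cd8 UMI, the shares were 80.3% and 65.6% in the Reg1-MO libraries, against 65.2% and 42.9% in the controls. The cells were not thinned for these shares. This cluster was singled out after its values had been seen, and no test was run on it.

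Klre1, Klri1 and Klri2 encode receptor chains of which the Klre1 product pairs with either Klri product in mouse NK cells. Klre1 had 783 and 960 CPM in NK/ILC1-like cells of Reg1-MO 1 and 2, against 718 and 831 CPM in control 1 and 2, with overlapping groups (log2 fold change 0.16 ± 0.14). Klri2 had 234 and 220 CPM in the Reg1-MO libraries, against 280 and 366 CPM in the controls. Its groups were apart at -0.50 ± 0.19 on the log2 scale (edgeR adjusted p = 0.257), and the value was -0.68 without control 1. Klri1 was low in every class. Over the libraries pooled it had 19.14 CPM in conventional dendritic-like and 19.08 CPM in NK/ILC1-like cells, so these classes were nearly level. In conventional dendritic-like cells it had 19.2 and 12.6 CPM in the Reg1-MO libraries, against 26.3 and 21.4 CPM in the controls.

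Among the CD94-NKG2 and NKG2D genes of NK/ILC1-like cells, the groups were apart for Klrc2 alone. Klrd1, encoding the shared CD94 chain, had 698 and 728 CPM in Reg1-MO 1 and 2, against 666 and 729 CPM in control 1 and 2, a log2 fold change of 0.03 ± 0.14. Klrk1, encoding the activating NKG2D, had 758 and 690 CPM in the Reg1-MO libraries, against 654 and 824 CPM in the controls, at -0.03 ± 0.15. Klrc1, encoding the inhibitory NKG2A, had 248 and 243 CPM in the Reg1-MO libraries, against 287 and 242 CPM in the controls, at -0.11 ± 0.18. These 3 genes overlapped between the groups. Klrc2, encoding the activating NKG2C, had 276 and 250 CPM in the Reg1-MO libraries, against 374 and 506 CPM in the controls. Its groups were apart at -0.73 ± 0.18 and it fell short of the threshold (edgeR adjusted p = 0.0536). The value was -0.93 without control 1. Klrc3 had 34.4 and 20 CPM in the Reg1-MO libraries, against 33.2 and 47.5 CPM in the controls, and overlapped.

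In CD8 T-like cells the same genes leaned higher in Reg1-MO. Klrc1 had 333 and 280 CPM in CD8 T-like cells of Reg1-MO 1 and 2, against 158 and 180 CPM in control 1 and 2 (log2 fold change 0.89 ± 0.15, edgeR adjusted p = 0.248). Klrk1 had 309 and 229 CPM in the Reg1-MO libraries, against 148 and 163 CPM in the controls (0.83 ± 0.18, edgeR adjusted p = 0.316). Klre1 had 67.0 and 75.7 CPM in the Reg1-MO libraries, against 26.8 and 44.7 CPM in the controls (1.09 ± 0.22, edgeR adjusted p = 0.316, and 1.41 without control 2). The groups did not overlap for any of them. Klrd1 had 526 and 399 CPM in the Reg1-MO libraries, against 343 and 292 CPM in the controls (0.56 ± 0.18). Klrc2 had 159 and 123 CPM in the Reg1-MO libraries, against 86.5 and 113 CPM in the controls (0.56 ± 0.19). Klrc3 had 11.5 and 8.48 CPM in the Reg1-MO libraries, against 5.91 and 4.67 CPM in the controls (0.93 ± 0.37). For these, too, each Reg1-MO library stood above either control.

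None of the 12 members tested in CD8 T-like cells was called by edgeR, where the background was 0% called, while 7 members and 781 of 9550 genes had an unadjusted p under 0.05. DESeq2 called 15 genes, among them 1 member, Klrc1 (adjusted p = 0.00879). The groups did not overlap for 8 members, 6 higher and 2 lower in Reg1-MO, where 40.6% of all tested genes did not overlap, 20.4% higher and 20.2% lower. The lower members were Klra3, at 1.78 and 3.63 CPM in Reg1-MO 1 and 2 against 4.22 and 5.34 CPM in control 1 and 2, and Klrb1c. Klrb1c had 9 and 0 UMIs in the Reg1-MO libraries, against 39 and 27 in the controls (log2 fold change -3.09 ± 0.65, edgeR adjusted p = 0.316). CD8 T-like cells came from a large cluster with 396 and 131 cells in Reg1-MO 1 and 2 against 339 and 146 in control 1 and 2, and a small cluster with 42 and 68 cells against 14 and 38. In the large cluster alone no member was called by edgeR either, with 9 at an unadjusted p under 0.05. Summed neutrophil markers, which these cells should lack, were 134 and 226 CPM in the Reg1-MO libraries, against 419 and 487 CPM in the controls, with 7 of 8 genes lower. Their part in the differences was not tested. In NK/ILC1-like cells the same sums were 164 and 240 CPM, against 521 and 556 CPM, with 5 of 8 genes lower.

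The 250 bases before the starts of Klrc1, Klrc2, Klrc3 and Klrk1 are shown because these neighbouring genes had higher levels in CD8 T-like cells of both Reg1-MO libraries. They come from RefSeq on GRCm38.p6, all on the minus strand of chromosome 6, at chr6:129678974-129679223 for Klrc1, chr6:129660597-129660846 for Klrc2, chr6:129643289-129643538 for Klrc3 and chr6:129623865-129624114 for Klrk1. Capitals mark the RUNX letters TGTGGT on either strand, the core bound by RUNX factors, which CD8 T cells and NK cells use.
Klrc1: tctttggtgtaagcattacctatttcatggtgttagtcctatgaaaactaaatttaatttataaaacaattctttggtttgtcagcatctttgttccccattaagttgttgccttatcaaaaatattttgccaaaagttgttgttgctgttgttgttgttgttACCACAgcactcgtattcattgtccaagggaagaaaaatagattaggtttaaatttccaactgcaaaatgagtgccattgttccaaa
Klrc2: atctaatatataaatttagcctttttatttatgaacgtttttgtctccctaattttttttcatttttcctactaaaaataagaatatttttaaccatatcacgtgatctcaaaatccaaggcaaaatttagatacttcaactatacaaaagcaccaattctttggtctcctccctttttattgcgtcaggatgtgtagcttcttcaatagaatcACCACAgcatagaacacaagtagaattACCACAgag
Klrc3: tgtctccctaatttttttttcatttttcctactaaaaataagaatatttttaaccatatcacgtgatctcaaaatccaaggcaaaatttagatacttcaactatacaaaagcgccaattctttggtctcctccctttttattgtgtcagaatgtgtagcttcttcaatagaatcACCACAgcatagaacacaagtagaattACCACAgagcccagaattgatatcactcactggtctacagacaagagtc
Klrk1: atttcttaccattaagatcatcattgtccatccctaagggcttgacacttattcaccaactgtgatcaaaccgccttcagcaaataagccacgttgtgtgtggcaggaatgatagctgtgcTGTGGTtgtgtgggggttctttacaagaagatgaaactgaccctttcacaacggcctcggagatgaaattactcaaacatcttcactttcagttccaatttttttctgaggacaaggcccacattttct
The match lies 81 bases before the RefSeq start in Klrc1 and 123 in Klrk1, and the pairs of matches lie 3 and 30 bases before it in Klrc2 and 43 and 70 in Klrc3. In GENCODE M21, Klrc2 and Klrc3 start further upstream, at chr6:129660689 and chr6:129643337, inside the windows shown. Both Klrc2 matches and the nearer Klrc3 match therefore lie within the GENCODE genes. No match shown overlaps a match of another motif searched. Klrc2 and Klrc3 are near copies here, with 199 of 210 aligned bases identical (94.8%). Over the 23 members in the RefSeq table the letters occur in 8, in Klra1, Klrb1a, Klrb1c and Klre1 as well, and in 14% of all 32851 promoters of that length. Klrg1, Klrd1 and Klri2 have no entry. The T-box letters AGGTGTGA occur in none of the 23 members and in 1.12% of all promoters, and the GATA letters AGATAA in 3 members and in 9.99%. Those are descriptions of letters and not of bound sites. Of the 91-base stretches near the 3' end of Klrc1, 21.5% also occur in Klrc2, so that reads from there cannot be told apart by sequence. Of those of Klrc2 and Klrc3, 6.12% and 8.91% are shared with another gene.

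The difference between the treatment effects in NK/ILC1-like and CD8 T-like cells was tested itself, in 1 edgeR model with the library as a block. Of 23 members that entered, 1 was called, Klrc2, beside a background of 0.0887% over 9021 genes. Only 12 of the 23 had enough counts to be tested in CD8 T-like cells as well. The others could enter through their counts in NK/ILC1-like cells. Klra4, Klra8 and Klra10 had 0 UMIs in CD8 T-like cells, so no difference could be estimated for them. The effect on Klrc2 was lower in NK/ILC1-like than in CD8 T-like cells by -1.25 ± 0.21 on the log2 scale (edgeR adjusted p = 0.0232). This call was lost without Reg1-MO 1 (-1.11, adjusted p = 0.0909). Klrc1 differed by -0.98 ± 0.22 (edgeR adjusted p = 0.133), Klrk1 by -0.80 ± 0.19 (0.158) and Klre1 by -0.89 ± 0.22 (0.203), all short of the threshold. Klrb1c differed by 2.58 ± 0.50 (edgeR adjusted p = 0.0650), from 75 UMIs in CD8 T-like cells. With any 1 of the 4 libraries left out Klrb1c passed, and Klrc1, Klrk1 and Klre1 each passed in some of these fits. Calls over all genes rose in each of these fits as well.

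**Figure D4:**
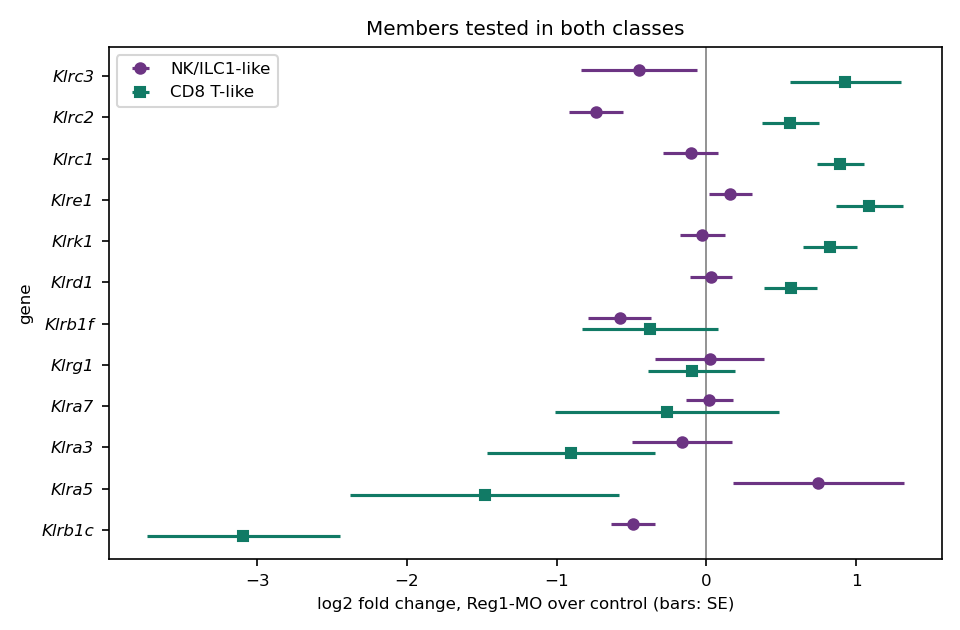
Log2 fold change of Reg1-MO over control for the 12 Klr genes tested in both NK/ILC1-like (circles) and CD8 T-like cells (squares), with SE as bars. Klrc1, Klrc2, Klrc3, Klrd1, Klrk1 and Klre1 lie between 0.56 and 1.09 in CD8 T-like cells and between -0.73 and 0.16 in NK/ILC1-like cells.

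In CD4 T-like cells 11 members were tested and none was called by edgeR, as for all 11184 genes (background 0%), with 4 members and 1435 genes at an unadjusted p under 0.05. DESeq2 called 60 genes and no member, but it gave no adjusted p for 7155 of the 11184 genes, which it could not call. Klrg1, an inhibitory receptor for cadherins that marks late effector cells, had the largest fold change of these members. It had 27.0 and 16.4 CPM in Reg1-MO 1 and 2, against 6.23 and 4.11 CPM in control 1 and 2, without overlap (log2 fold change 2.02 ± 0.31, edgeR adjusted p = 0.196). The log2 fold change of Klrg1 was 2.42 without control 1 and 2.32 without Reg1-MO 2. A Klrg1 UMI was found in 7.38% and 5.83% of CD4 T-like cells of the Reg1-MO libraries, against 3.06% and 2.07% in the controls, and in 0.0739% of neutrophil-like cells, at medians of 6836 and 6072 UMIs. Of the 455 Klrg1 UMIs in CD4 T-like cells, 346 came from 1 cluster led by Rai14, P2rx7 and Il12rb2, where Klrg1 had 82.4 and 35.1 CPM in the Reg1-MO libraries, against 23.7 and 13.2 CPM in the controls.

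The NKG2 and NKG2D genes of CD4 T-like cells had small differences. Klrc2 had 68.0 and 63.7 CPM in Reg1-MO 1 and 2, against 49.6 and 48.9 CPM in control 1 and 2 (log2 fold change 0.40 ± 0.10, edgeR adjusted p = 0.254). Klrk1 had 45.5 and 49.2 CPM in the Reg1-MO libraries, against 37.5 and 35.4 CPM in the controls (0.35 ± 0.10, edgeR adjusted p = 0.277). Klrc1 had 134 and 86.2 CPM in the Reg1-MO libraries, against 83.5 and 73.4 CPM in the controls, and Klrd1 had 108 and 90.6 CPM against 87.8 and 82.6 CPM. None of these 4 overlapped between the groups, nor did Klrg1, Klrb1c and Klrc3, so that 7 of 11 members were apart where 47% of all tested genes were. Klrb1c had 22 and 10 UMIs in CD4 T-like cells of the Reg1-MO libraries, against 37 and 53 in the controls (-1.76 ± 0.56, edgeR adjusted p = 0.301, and -2.44 without control 1).

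Regulatory T-like cells carried Klrg1 as their leading member. Klrg1 had 144 and 158 CPM in Reg1-MO 1 and 2, against 89.4 and 164 CPM in control 1 and 2, and the groups overlapped (log2 fold change 0.27 ± 0.24). Of 5 members tested, none was called by edgeR or DESeq2, against a background of 0.624% (0.162% higher and 0.462% lower in Reg1-MO), with 3 at an unadjusted p under 0.05 in edgeR. Those were Klrc1, Klrd1 and Klrc2. Klrc1 had 111 and 20 UMIs in the Reg1-MO libraries, against 4 and 13 in the controls, or 37.5 and 14.9 CPM against 3.76 and 10.6 CPM (1.95 ± 0.55, edgeR adjusted p = 0.179). Klrd1 had 104 and 14 UMIs in the Reg1-MO libraries, against 2 and 12 in the controls (2.06 ± 0.68, edgeR adjusted p = 0.260). Reg1-MO 1 held most of the UMIs of both genes. Both passed when Reg1-MO 2, control 1 or control 2 was left out, and neither did without Reg1-MO 1. Calls over all genes rose in each of these fits as well. Cells with a UMI of Klrc1, Klrc2, Klrc3 or Klrd1 made up 15.2% and 10.7% of regulatory T-like cells in the Reg1-MO libraries, against 11.1% and 7.84% in the controls, so that the groups overlapped, and 90.6% of these cells had a UMI of Foxp3, the regulatory T cell factor. A UMI of the CD8 T cell gene Cd8a was found in 20% and 18.8% of them in the Reg1-MO libraries, from 55 and 16 cells, against 0% and 8.33% in the controls, from 13 and 12 cells. Over all regulatory T-like cells Cd8a had 23.7 and 42.5 CPM in the Reg1-MO libraries, against 0.941 and 14.7 CPM in the controls, and its part in the Klrc1 and Klrd1 values was not tested.

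Gamma delta T-like cells, with as few as 14 cells in a library, were not tested. Klrb1b had 71.4 and 213 CPM there in Reg1-MO 1 and 2, against 136 and 121 CPM in control 1 and 2, and Klrk1 had 69.6 and 104 CPM against 120 and 186 CPM. The Klrb1b values rest on 39 and 47 UMIs in the Reg1-MO libraries, against 76 and 11 in the controls, and overlapped, while Klrk1 was lower in both Reg1-MO libraries.

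Dendritic cells carried their own set. In conventional dendritic-like cells, Klrk1 had 250 and 182 CPM in Reg1-MO 1 and 2, against 254 and 156 CPM in control 1 and 2, and Klrd1 had 173 and 199 CPM against 150 and 164 CPM. Klrb1b had 206 and 180 CPM there in the Reg1-MO libraries, against 239 and 214 CPM in the controls. A Klrk1 UMI was found in 81.5% of these cells at a median of 15308 UMIs, against 0.425% of neutrophil-like cells. Plasmacytoid dendritic-like cells held Klrd1 at 268 and 340 CPM in the Reg1-MO libraries, against 347 and 267 CPM in the controls. Klra17, encoding Ly49Q, an inhibitory Ly49 known on plasmacytoid dendritic cells and neutrophils, had 145 and 168 CPM there in the Reg1-MO libraries, against 124 and 105 CPM in the controls. With as few as 35 plasmacytoid and 48 conventional dendritic-like cells in a library, these levels were not tested.

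Klra2, encoding Ly49B, was the myeloid member of the family. In monocyte-like cells it had 464 and 505 CPM in Reg1-MO 1 and 2, against 544 and 438 CPM in control 1 and 2, with the groups overlapping. A Klra2 UMI was found in 91.8% of monocyte-like, 76.4% of macrophage-like and 50.7% of neutrophil-like cells, at medians of 11822.5, 17678.5 and 6072 UMIs, against 0.934% of CD4 T-like cells at 6836 UMIs. Its level differed between the neutrophil-like clusters. In a cluster led by Nlrp12 (cluster 14) it had 386 and 399 CPM in the Reg1-MO libraries, against 458 and 472 CPM in the controls, while in the granule-rich cluster led by Ltf (cluster 17) it had 16.5 and 12.3 CPM against 12.0 and 18.1 CPM. Klra17 followed a like order there, at 75.5 and 61.1 CPM in cluster 14 of the Reg1-MO libraries against 116 and 111 CPM in the controls, and at 20.6 and 18.8 CPM in cluster 17 against 29.2 and 15 CPM.

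The 250 bases before the starts of Klra2 and Klra17 are shown because these are the Ly49 genes of the myeloid cells. They are from RefSeq on GRCm38.p6, minus strand, at chr6:131247363-131247612 for Klra2 and chr6:129876673-129876922 for Klra17. Capitals mark the letters GAGGAA on either strand, a core of PU.1-type ETS factors of myeloid cells.
Klra2: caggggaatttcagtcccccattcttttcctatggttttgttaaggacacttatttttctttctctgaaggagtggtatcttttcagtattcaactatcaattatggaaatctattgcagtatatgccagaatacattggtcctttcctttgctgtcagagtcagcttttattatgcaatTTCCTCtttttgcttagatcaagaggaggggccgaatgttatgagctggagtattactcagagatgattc
Klra17: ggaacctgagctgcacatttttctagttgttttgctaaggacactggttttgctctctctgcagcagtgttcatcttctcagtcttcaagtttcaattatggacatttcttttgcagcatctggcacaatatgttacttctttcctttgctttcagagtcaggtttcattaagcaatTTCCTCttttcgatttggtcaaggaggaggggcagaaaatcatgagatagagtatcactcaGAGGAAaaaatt
The match lies 64 bases before the start in Klra2 and the pair of matches 6 and 67 bases before it in Klra17, none of them over another motif searched. These letters are common, in 23.3% of all promoters and in 15 of the 23 members, among them 9 Ly49 genes. The C/EBP-type letters TTGCNNAA occur in 10 of the 23 members, Klra2 and Klra17 included, and in 9.56% of all promoters.

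In macrophage-like cells 6 members were tested and none was called by edgeR, as for all 12859 genes (background 0%), with 3 members and 1690 genes at an unadjusted p under 0.05. DESeq2 called 237 genes, among them Klrb1b (adjusted p = 0.000429) and Klrd1 (adjusted p = 0.0217). Klra2 had 251 and 260 CPM in Reg1-MO 1 and 2, against 194 and 90.8 CPM in control 1 and 2 (log2 fold change 0.85 ± 0.34, edgeR adjusted p = 0.381). The groups were apart, with control 2 far below the rest. In control 2, 757 of the 1023 macrophage-like cells belonged to a cluster led by Gpnmb (cluster 0), where Klra2 was low in every library, against 140 of 1755 in Reg1-MO 1, 25 of 684 in Reg1-MO 2 and 168 of 1376 in control 1. Within the cluster led by Arg1 (cluster 1) alone, Klra2 had 272 and 276 CPM in the Reg1-MO libraries, against 211 and 288 CPM in the controls, and its log2 fold change was 0.14. Without control 1 the value for the whole class was 1.46.

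**Figure D5:**
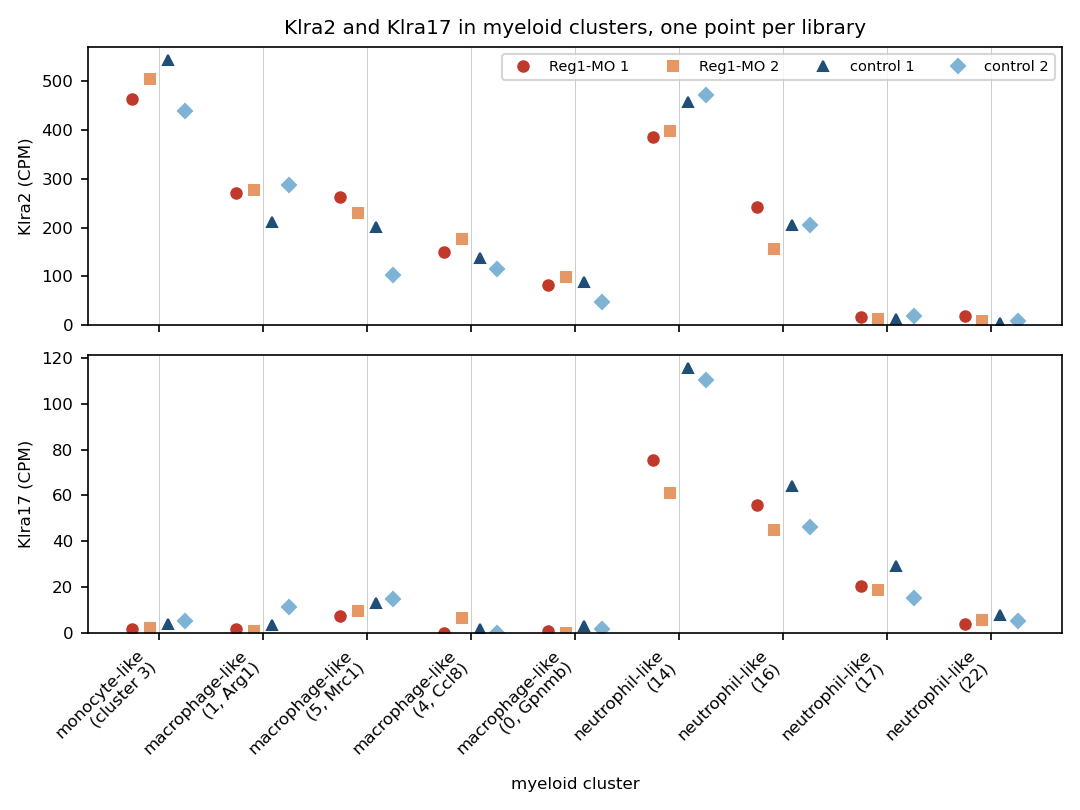
Klra2 (top) and Klra17 (bottom) in CPM, 1 point per library, in 1 monocyte-like, 4 macrophage-like and 4 neutrophil-like clusters, each named by its number and, for macrophages, its leading gene. Klra2 is highest in monocyte-like cells and in neutrophil-like cluster 14 and lowest in neutrophil-like clusters 17 and 22, and Klra17 is highest in neutrophil-like cluster 14.

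Another 4 members had groups that were apart in macrophage-like cells, all at levels far below Klra2. Klrb1b had 15.3 and 17.7 CPM in Reg1-MO 1 and 2, against 7.64 and 5.29 CPM in control 1 and 2 (log2 fold change 1.33 ± 0.20, edgeR adjusted p = 0.355, and 1.60 without control 1). Klrk1 had 12.7 and 10.6 CPM in the Reg1-MO libraries, against 7.56 and 2.13 CPM in the controls (1.25 ± 0.54, and 2.44 without control 1). Both genes were low in cluster 0, which held most macrophage-like cells of control 2, at 1.17 CPM for Klrb1b and 0.826 CPM for Klrk1 over the libraries pooled. Within cluster 1 alone, Klrb1b had 18.2 and 18.5 CPM in the Reg1-MO libraries, against 9.85 and 23.5 CPM in the controls, so that the groups overlapped with control 2 highest. Klrk1 had 13.9 and 11.6 CPM within cluster 1 in the Reg1-MO libraries, against 8.47 and 6.78 CPM in the controls, and stayed apart. Klrd1 had 51 and 59 UMIs in the Reg1-MO libraries, against 20 and 6 in the controls (2.74 ± 0.73, edgeR adjusted p = 0.355). Klra17 had 1.86 and 2.15 CPM in the Reg1-MO libraries, against 4.86 and 4.12 CPM in the controls (-1.18 ± 0.22, edgeR adjusted p = 0.355). Groups were apart for 51.5% of all genes tested there. The T cell markers in the same cells summed to 18.8 and 26.3 CPM in the Reg1-MO libraries, against 18.2 and 10.5 CPM in the controls, with 6 of 8 genes higher, and their part in the Klrd1 and Klrk1 values was not tested.

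Klrg2 was highest in microglia-like cells. It had 9.63 and 9.22 CPM there in Reg1-MO 1 and 2, against 9.34 and 2.90 CPM in control 1 and 2, and 11.5% of microglia-like cells had a UMI at a median of 15401 UMIs, against 0.0370% of neutrophil-like cells. The groups overlapped, with control 2 lowest.

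The ligand and adaptor lists held no call. The MHC class I list (7 genes tested in each class) had no call in any of the 5 classes, and in NK/ILC1-like cells 5 of its 7 genes leaned higher in Reg1-MO, their median on the log2 scale being 0.27, against -0.01 for all genes. H2-K1, a class I heavy chain, had 0.42 ± 0.11 there (edgeR adjusted p = 0.0631). The receptor adaptors had no call either, with 3 of 4 above 0 in NK/ILC1-like cells. Tyrobp (DAP12), the adaptor of the activating Ly49 receptors, stood at 0.16 ± 0.11 and Fcer1g at 0.06 ± 0.11. The NKG2D ligands, Clec2 ligands, cadherins and signalling enzymes also had no call in any class, but most of these ligands were not tested. By class, 1 to 3 of 9 NKG2D ligands were tested, 2 to 3 of 6 Clec2 ligands, 0 to 1 of 3 cadherins and 10 to 13 of 13 signalling enzymes. No gene at all was called by edgeR in CD8 T-like, CD4 T-like or macrophage-like cells, so no list could hold a call there.

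Among NK effector genes outside the family (17 tested in NK/ILC1-like cells), 1 rose and 2 fell. Over all genes tested there, 0.412% were called higher and 0.412% lower in Reg1-MO. Gzmc, a granzyme, rose by 1.57 ± 0.36 on the log2 scale (edgeR adjusted p = 0.0302), while Il12rb2, a chain of the IL-12 receptor, fell (-0.88 ± 0.19, adjusted p = 0.0186), as did Ccl5, a chemokine (-0.41 ± 0.09, adjusted p = 0.0209). Of 12 transcription factors tested, Zeb2, a factor of mature NK cells, fell (-0.88 ± 0.18, edgeR adjusted p = 0.0153) and none rose. All 4 calls were lost with DESeq2 (adjusted p from 0.09999 to 0.613) and without Reg1-MO 1 (0.0506 to 0.505). Calls were also lost without Reg1-MO 2 for Zeb2 (edgeR adjusted p = 0.259) and Il12rb2 (0.0586), without control 1 for Il12rb2 (0.0648) and Ccl5 (0.123), and without control 2 for Gzmc (0.0856). In regulatory T-like cells Ifng, 1 of 12 effector genes tested, rose (2.77 ± 0.23, edgeR adjusted p = 0.00437), where 0.162% of all tested genes were called higher. Of the cells with an NKG2 or CD94 UMI, 50.9% and 56.2% had an Ifng UMI in Reg1-MO 1 and 2, from 55 and 16 cells. In control 1 and 2 the shares were 15.4% and 33.3%, from only 13 and 12 cells. Among the other regulatory T-like cells the groups overlapped, at 8.79% and 5.26% in the Reg1-MO libraries against 7.69% and 2.13% in the controls.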

How the data were processed

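Sorted CD45+ spinal cord cells were sequenced with the 10x Genomics Chromium 3' kit, version 3, per the labels' protocols. The authors deposited whole-number UMI counts for each gene in each cell barcode. Per the file headers, Cell Ranger 5.0.1 wrote them. The build mm10 and Seurat 4.0 are named in the submitters' processing notes. How cells were called, and which annotation release was used, is not given in the sources used here.

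Barcodes were required to hold 500 UMIs and 200 genes or more, with mitochondrial UMIs not above 10%. The highest Scrublet doublet scores were removed at 0.8% per 1000 barcodes (scanpy 1.11.5, Python 3.11.15). The automatic threshold was not used. Cells were clustered on 3000 variable genes and 40 components with 15 neighbours (Leiden, resolution 1, igraph 0.11.9), and clusters were named from marker lists, with score limits set after the clusters had been seen. T and NK cells were clustered again. Clusters of all cells that no name suited held 4799 cells. T/NK clusters 5 and 13, also unnamed, held 248 and 53 cells. None of these clusters entered the main tests.

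Counts were summed per library and class. Classes with at least 50 cells in every library were tested with the edgeR 4.0.16 quasi-likelihood test (R 4.3.3) after TMM scaling and filterByExpr (minimum count 10), Reg1-MO over control, 2 libraries each, with Benjamini-Hochberg adjustment over all genes of the class and a threshold of 0.05. CPM levels are unscaled, and overlap was read on TMM-scaled CPM. DESeq2 1.42.0 was an alternative. UMIs count transcript ends, so no length correction applies. The tests were first run on simulated data. Because of low counts, 7 of 26 members were untested in NK/ILC1-like, 14 in CD8 T-like, 15 in CD4 T-like, 21 in regulatory T-like and 20 in macrophage-like cells.

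The gene family and the lists were chosen with earlier results of these data known, and the members follow from their symbols. Named were every called member, every member with at least 200 UMIs in the class of its highest level, and list genes that were called or among the highest, not all of which are printed. Promoters were matched by symbol to RefSeq.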

Additional observations from a re-analysis of the deposited data

Results flagged for a closer look

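One result stood out because the treatment effect differed between 2 cell types when the difference itself was tested. Klrc2, encoding NKG2C, had a log2 fold change of -0.73 in NK/ILC1-like cells and 0.56 in CD8 T-like cells. The difference of -1.25 on the log2 scale passed in edgeR with the library as a block (adjusted p = 0.0232, over 9021 genes). In NK/ILC1-like cells each Reg1-MO library had less Klrc2 than either control, and in CD8 T-like cells each had more. The difference lay between -1.38 and -1.11 over all alternatives run, and it missed the threshold without Reg1-MO 1 (edgeR adjusted p = 0.0909). Of the stretches near the 3' end of Klrc2, 6.12% also occur in another gene. The part of that sharing in the difference was not tested.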

How the results depend on the processing

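The number of Klr genes called changed with the settings. In NK/ILC1-like cells it was 1 in the main setting, 3 without a filter on low counts, 0 with DESeq2, 0 with Klr genes among the variable genes and 0 to 5 with 1 library left out. In CD8 T-like cells it was 0, but 7 without the filter, 1 with DESeq2 and 0 to 1 with a library left out. In CD4 T-like cells it was 0, but 7 without the filter and 0 to 3 with a library left out. In regulatory T-like cells it was 0, but 2 without the filter and 0 to 4 with a library left out. In macrophage-like cells it was 0, but 6 without the filter, 2 with DESeq2 and 0 to 3 with a library left out. For the difference between NK/ILC1-like and CD8 T-like effects it was 1, but 6 without the filter and 1 to 5 with a library left out. A lone library is then assumed to vary like the other group. Calls over all genes also rose in most fits with a library left out, and in every class without the filter. The counts of Klr calls are to be read beside that rise. DESeq2 gave no adjusted p for 1920 genes in NK/ILC1-like, 2963 in CD8 T-like, 7155 in CD4 T-like and 1746 in macrophage-like cells. Genes without an adjusted p could not be called by it.

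The deviations of same-numbered libraries correlated at -0.02 to 0.02 over genes. That shows no sign of pairing by replicate number, and with 2 libraries per group it cannot exclude pairing. With the replicate block the counts of Klr calls were 3 in NK/ILC1-like, 2 in CD8 T-like, 1 in CD4 T-like and 0 in regulatory T-like and macrophage-like cells. Over all genes, the block moved the calls from 48 to 90 in NK/ILC1-like, from 0 to 31 in CD8 T-like and from 0 to 89 in CD4 T-like cells. In regulatory T-like cells they went from 54 to 53, and in macrophage-like cells they stayed at 0.

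The difference in the share of NK/ILC1-like cells kept its sign under each alternative run, from 0.128 to 0.754 percentage points, and the NK/ILC1-like share of Klr UMIs, 13% on average over libraries (SD 3.8, n = 4), ranged from 11.3% to 14.3%. Over single genes, 369 of 453 recomputed values kept direction and side of the threshold, 57 newly passed, 27 no longer passed, and none turned round. RLE scaling, kept doublets, Leiden resolution 1.5 and the omission of shared barcodes left the counts of Klr calls as they were in all 5 classes. Over all genes, keeping doublets moved the calls from 48 to 31 in NK/ILC1-like and from 54 to 5 in regulatory T-like cells, and Klr genes among the variable genes gave 31 and 4. Depth limits the members with few UMIs: Klrb1 and Klra10 had 32 and 17 in all cells.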

Other observations

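Cycling-like T and NK cells, which no comparison above uses because control 2 had 28 of them, carried the T cell members of the family. Klrc1 had 212 and 176 CPM in these cells of Reg1-MO 1 and 2, against 128 and 53.6 CPM in control 1 and 2. Klrk1 had 187 and 131 CPM in the Reg1-MO libraries, against 85.7 and 62.0 CPM in the controls. Klrd1 had 343 and 197 CPM in the Reg1-MO libraries, against 194 and 142 CPM in the controls. Klre1 had 71.8 and 106 CPM in the Reg1-MO libraries, against 26.5 and 18.4 CPM in the controls. Both Reg1-MO libraries stood above both controls for these 4 genes, for Klrd1 only narrowly. The share of all genes so placed was not computed in this class. In the tested classes it was 20.4% to 26% on TMM-scaled CPM. The class was mixed, with a UMI of Cd4 in 38.9% of cells and of Cd8a in 55%. Klra5, encoding Ly49E, had 75 and 21 UMIs in the Reg1-MO libraries, against 1 and 0 in the controls, in cells that made up 2.63% of the class. Klra4, a gene of NK/ILC1-like cells, had 9.66 and 0 CPM in the Reg1-MO libraries, against 3.16 and 97.2 CPM in the controls, with control 2 far above the other libraries. None of these values was tested.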
